A study of Mus musculus with 27 samples.

Results

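The 10 genes described here encode secreted and uptake proteins of the yolk sac endoderm and of lipoprotein particles: Afp, Apoa1, Apoa4, Apob, Apom, Apoc2, Amn, Cubn, Rbp4 and Trf. They were found by symbol among the 55416 rows of the gene read count table, and all 10 had a row. They were chosen by their measured levels in the AKR/J d12 libraries, which were high for most of them, so every comparison with that group is given as a description without a test. RNA sequencing was performed on whole fetal brain of 3 strains on days (d) 12, 15 and 17 of gestation, with 3 libraries in each of 9 groups and 27 in all. AKR/J is a short-lived inbred strain, C57BL/6J is a long-lived inbred strain, and Cav1-null (B6.Cg-Cav1tm1Mls/J) is short-lived, lacks Caveolin-1 in every tissue and was made congenic to C57BL/6J by backcrossing. No group received a treatment. All fetuses were labelled female, the dams were about 8 weeks old, and the day of the vaginal plug was counted as day 1. Each brain came from 1 fetus and the litters were not given in the sources used here, so p-values measure the spread between these fetuses, which may share a litter.

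The visceral endoderm of the yolk sac wraps the early embryo and does for it what the liver and gut do later: it takes up maternal proteins and secretes serum proteins and lipid particles. Alpha-fetoprotein (Afp) is its best known product, made later by fetal liver, and the apolipoproteins, retinol-binding protein and transferrin are secreted by the same layer. The developing brain is not known as a main source of most of these proteins, although transferrin is also made by choroid plexus and oligodendrocyte lineage cells.

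Library totals ranged from 26363697 to 39759702 reads with a median of 29700746, and levels are given as CPM, the read count of a gene scaled to the library total. A count of 3 reads corresponded to 0.0755 CPM in the largest library and 0.114 CPM in the smallest. Apoc2 was at 0 throughout. Afp, Apoa1, Apoa4 and Apob lay near the limit of this depth outside AKR/J d12, with medians of 0 to 0.372 CPM. Cav1 ranged from 0 to 0.551 CPM over the 9 Cav1-null libraries, against 10.7 to 43 in C57BL/6J and 6.36 to 38 in AKR/J. The AKR/J d12 libraries stood apart. The summed level of 12 neural genes was 3792 to 4446 CPM there against 5857 to 9203 CPM in the other 24 libraries, and none of the 12 was at 0. The erythroid genes, 14 measured, summed to 35656 to 136224 CPM in AKR/J d12 against 622 to 19331 CPM elsewhere.

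The DNA just upstream of the start is shown for 5 members, 4 that were high together in AKR/J d12 and Amn, which was not. The stretches are the 150 bases before the annotated start, or 250 for Apoa4, in GRCm39 (starts from GENCODE vM39), written 5′ to 3′ on the gene's strand. Capitals mark matches to 1 of 5 searched motifs. Afp lies on the plus strand of chromosome 5 at chr5:90638434-90638583, Apob on the plus strand at chr12:8027498-8027647, Apoa1 and Apoa4 on the plus strand at chr9:46139728-46139877 and chr9:46151744-46151993, and Amn on the plus strand at chr12:111237374-111237523.
Afp: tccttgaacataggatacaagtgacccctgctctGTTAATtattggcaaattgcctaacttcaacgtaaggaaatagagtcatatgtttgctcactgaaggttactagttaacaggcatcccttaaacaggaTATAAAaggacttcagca
Apob: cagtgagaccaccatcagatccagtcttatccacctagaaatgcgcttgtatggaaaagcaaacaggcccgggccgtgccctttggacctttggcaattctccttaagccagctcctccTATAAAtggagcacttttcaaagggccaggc
Apoa1: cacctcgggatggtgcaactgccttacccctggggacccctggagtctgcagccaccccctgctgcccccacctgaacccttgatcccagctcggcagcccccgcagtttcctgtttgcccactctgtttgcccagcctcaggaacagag
Apoa4: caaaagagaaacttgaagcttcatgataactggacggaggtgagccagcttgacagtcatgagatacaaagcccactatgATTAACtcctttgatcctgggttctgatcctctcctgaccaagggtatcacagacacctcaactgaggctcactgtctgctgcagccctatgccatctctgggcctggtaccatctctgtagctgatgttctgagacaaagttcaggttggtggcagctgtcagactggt
Amn: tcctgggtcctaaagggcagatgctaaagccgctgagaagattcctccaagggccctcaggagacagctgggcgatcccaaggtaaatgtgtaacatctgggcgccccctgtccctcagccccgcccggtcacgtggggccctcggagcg
The motifs, read on both strands of 250 bases, were GTTAAT for HNF1, AAAGTCCA for HNF4, TGTTTAC for FOXA, AGATAA for GATA factors and TATAAA for the TATA box, and no match overlapped another. GTTAAT was found upstream of Afp and, on the opposite strand, of Apoa4, in 2 of the 10 members and in 6.24% of 21247 protein-coding genes searched. The genes searched leave out 1 autosome and the mitochondrial genome. TATAAA was found upstream of Afp, Apob and Rbp4 and in 11.9% of the genes searched. AGATAA was found upstream of Apoc2 alone among the members and in 9.61% of the genes searched. The letters AAAGTCCA and TGTTTAC were in no member's window and in 1.04% and 2.72% of the windows searched. The Apoa1 and Amn windows held none of these letters, and a match is not a bound site.

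Afp was the most abundant member per length in AKR/J d12 and was close to the detection limit in most other libraries. The 3 AKR/J d12 libraries had 707, 144 and 10.9 CPM. The other 24 libraries ranged from 0 to 5.82 CPM with a median of 0.372 CPM. All 3 AKR/J d12 libraries lay above all 24 others. They also differed widely from one another, rep1 being 65 times rep3, and the nearest of the other libraries was Cav1-null d15 rep3. The ratio of mean CPM to AKR/J d15 was 283, to C57BL/6J d12 373 and to Cav1-null d12 674, and the fitted log2 fold change of AKR/J d12 against C57BL/6J d12 was 9.13 with a standard error of 1.73. Without rep1 the ratios of mean CPM were 76.5, 101 and 182.

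The particle proteins Apoa1 and Apob followed the same order of libraries. Apoa1, the main protein of high-density lipoprotein, had 107, 26.5 and 3.22 CPM in AKR/J d12 and at most 1.94 CPM elsewhere. Apob, the scaffold of chylomicrons and of very-low- and low-density lipoprotein, had 182, 22.5 and 1.4 CPM, against at most 1.83 CPM elsewhere. Apoa1 was therefore above every other library in all 3 AKR/J d12 libraries, whereas Apob in rep3 lay within the range of the others. Apob varied most of all members within the group, with rep1 at 130 times rep3.

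Apoa4, a lipid-binding apolipoprotein made mainly by gut and yolk sac, had 7.39, 2.15 and 0.35 CPM in AKR/J d12. It had 0 reads in 19 of the other 24 libraries and at most 0.0745 CPM, which is 2 reads. With a floor of 3 reads over the compared group, AKR/J d12 was at least 98.1-fold higher than AKR/J d15, at least 107-fold higher than C57BL/6J d12 and at least 104-fold higher than Cav1-null d12. Without rep1 these bounds were 37.2-, 40.6- and 39.5-fold. Apoa1 and Apoa4 lie 9781 bases apart on chromosome 9. Exons of Gm10680 and Gm47528 cover 69.8% of the exon bases of Apoa4 on the opposite strand, and whether reads were counted by strand is not given in the sources used here.

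Apom, a lipocalin that carries sphingosine 1-phosphate on high-density lipoprotein, had 12, 4.83 and 1.96 CPM in AKR/J d12. Elsewhere it ranged from 0.341 to 1.98 CPM. AKR/J d12 rep3 was thus just below C57BL/6J d12 rep1, the highest of the others. Rbp4, the plasma carrier of retinol, had 36.6, 10.6 and 1.61 CPM in AKR/J d12 and 0.182 to 1.87 CPM elsewhere. The first 2 libraries were far above the other range and rep3 was inside it. Exons of Ffar4 on the opposite strand cover 15.6% of the exon bases of Rbp4.

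Trf, transferrin, which carries iron in plasma, was detected in every library. It had 94.8, 22.5 and 5.52 CPM in AKR/J d12, against 4.82 to 15.2 CPM elsewhere. AKR/J d12 rep1 and rep2 lay above all 24 other libraries and rep3 near the bottom of their range. Per kilobase of exon the mean over AKR/J d12 was 83.3 CPM for Afp, 26.7 for Apoa1, 11.4 for Rbp4, 7.19 for Trf, 6.15 for Apom and 4.93 for Apob. In C57BL/6J d17 the order was different, with Amn at 2.62 and Trf at 1.78 CPM per kilobase and Afp at 0.013.

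Cubn and Amn form a receptor pair, of which Cubn was high in the same 2 AKR/J d12 libraries as the secreted proteins and Amn was not. Cubn, the endocytic receptor cubilin that takes up vitamin B12 bound to intrinsic factor, albumin and apolipoprotein A-I, had 14, 7.94 and 1.64 CPM in AKR/J d12 and 1.46 to 5.99 CPM elsewhere. Amn, the membrane protein amnionless that anchors cubilin, had 2.21, 0.882 and 0.35 CPM in AKR/J d12 and 0.786 to 10.4 CPM elsewhere. Cubn was above the range of the others in 2 of the 3 libraries, whereas Amn was above it in none and below it in rep3. That range includes the later days, on which Amn was higher. Within d12, Amn in AKR/J rep1 was above all 6 C57BL/6J and Cav1-null libraries, which reached 1.07 CPM, and it followed the same order of rep1, rep2 and rep3 as the other members. Amn had a mean of 1.15 CPM in AKR/J d12, 0.962 in C57BL/6J d12 and 0.882 in Cav1-null d12, with overlapping libraries.

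Apoc2, the cofactor of lipoprotein lipase, had 0 reads in all 27 libraries, which allows up to 0.114 CPM in the smallest library. This zero is not read as absence. In GENCODE vM39 41.6% of its exon bases lie in exons of Apoc2l on the same strand, and the row of that neighbour, listed there as Gm44805, was also at 0 in all libraries.

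**Figure D1:**
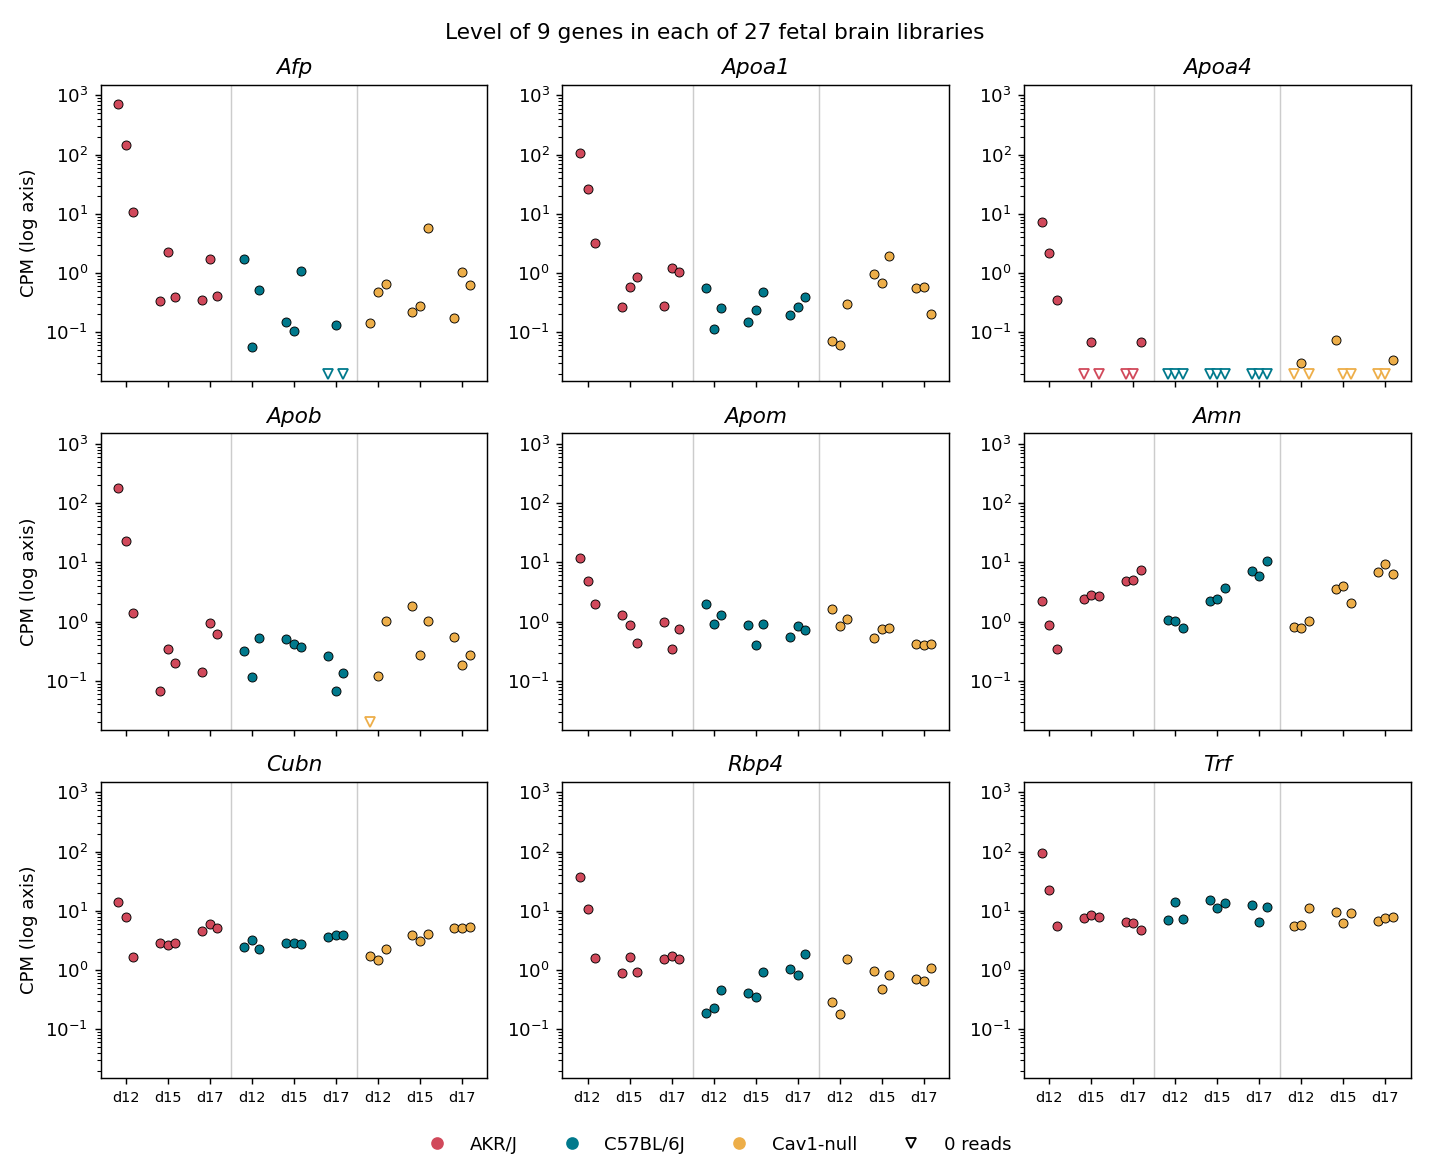
Level of 9 members (Apoc2, at 0 throughout, is not drawn) in each of the 27 libraries, as CPM on a log axis, by day within each strain. Each point is 1 library and open triangles at 0.02 mark libraries with 0 reads. Afp, Apoa1 and Apoa4 are above all 24 other libraries in each AKR/J d12 library, and Amn is higher on d17 than on d12 in every strain.

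Taking the AKR/J d12 libraries 1 by 1, rep1 and rep2 each exceeded all 24 other libraries for the same 8 members, those other than Amn and Apoc2. Rep3 did so for Afp, Apoa1 and Apoa4 only. Every AKR/J d12 library was above every AKR/J d15 library for 5 of the 9 members kept by the count filter, beside 12% of the 19935 genes kept. It was above every C57BL/6J d12 library for 5 of 9, beside 13.8% of 19320 genes, and above every Cav1-null d12 library for 6 of 9, beside 10.1% of 19955 genes. Since these levels chose the members, nothing is read from the counts. The 3 comparisons share the AKR/J d12 libraries.

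The 3 AKR/J d12 libraries differed in the sum of the members by far more than other groups did, with 1164, 242 and 26.9 CPM against 9.83 to 29 CPM in the other 24 libraries. The members did not scale together. Relative to Afp in the same library, Apoa1 was 15.2%, 18.3% and 29.6%, Trf 13.4%, 15.6% and 50.8%, and Apom 1.69%, 3.35% and 18%. Apob went the other way, with 25.8%, 15.6% and 12.9% of Afp.

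Genes that mark other tissues outside the brain were measured in the same libraries. The erythroid share of reads was 6.9%, 3.57% and 13.6% in AKR/J d12 rep1, rep2 and rep3, so it was highest in the library where Afp was lowest. Prl8a2, a prolactin family hormone of the decidua, had 398, 77 and 16.4 CPM, in the same order as Afp, and was at most 2.49 CPM elsewhere. Of the 14 trophoblast genes, 3 were above all others in every AKR/J d12 library, beside 4.88% of 23307 genes, and their sum was 9.09 to 135 CPM against 0.968 to 89.8 CPM elsewhere. The 89.8 CPM came from C57BL/6J d12 rep3, where Afp was 0.524 CPM, and the other 23 libraries reached at most 11.1 CPM. The 10 decidua genes summed to 31 to 437 CPM against 9.13 to 40.1 CPM, and most of the sum in each AKR/J d12 library was Prl8a2. Prl8a2 was the only 1 of the 10 above all others in every AKR/J d12 library, beside 4.88% of 23307 genes. No trophoblast or decidua gene was at 0 in all of AKR/J d12. The 12 liver genes summed to 5.14 to 130 CPM against 1.7 to 13.2 CPM, most of it Apoa2 with 111, 8.47 and 3.6 CPM. Alb, the defining gene of liver, had 7.89, 0.282 and 0.14 CPM, and Cyp2e1 and Tat were at 0 in the group. The part of these tissues in the member levels was not tested. In whole-brain RNA fewer cells of a type and less RNA per cell cannot be told apart.

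**Figure D2:**
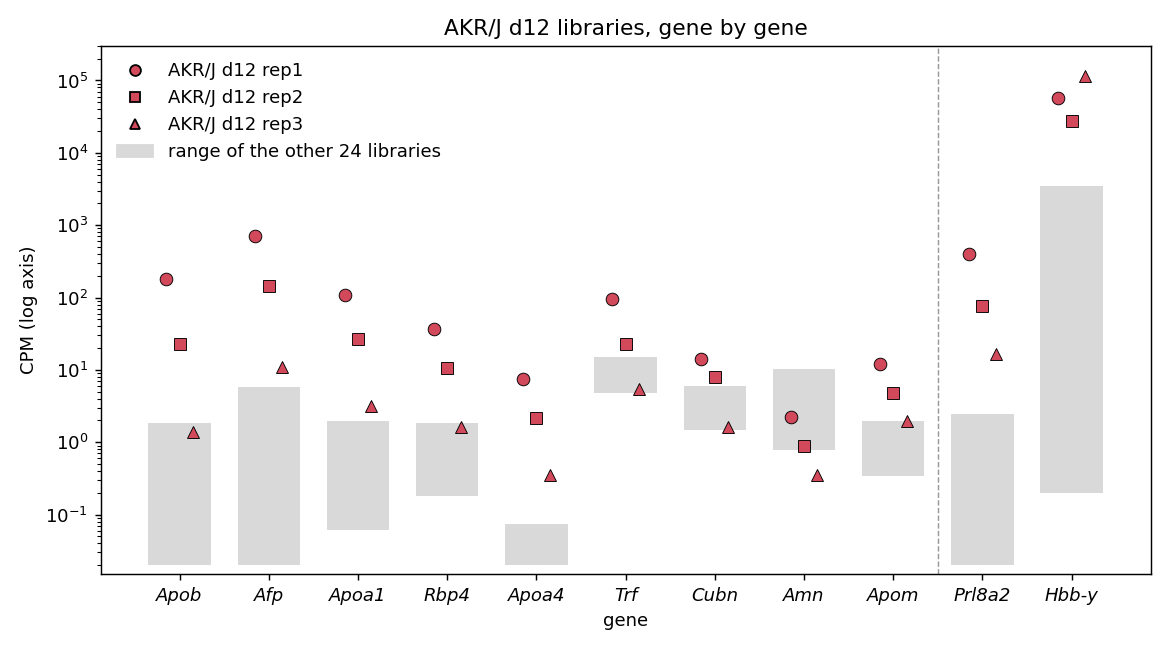
Level of 9 members and of Prl8a2 and Hbb-y in the 3 AKR/J d12 libraries, as CPM on a log axis, with members ordered by the ratio of rep1 to rep3. Grey bars give the range of the other 24 libraries, drawn from 0.02 where the lowest value is 0. The members and Prl8a2 are highest in rep1 and lowest in rep3, whereas the embryonic globin Hbb-y is highest in rep3.

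Other genes of the yolk sac endoderm are given without a test, because the AKR/J d12 contrast chose the members. The 29 further genes on the list summed to 822, 259 and 138 CPM in AKR/J d12 rep1, rep2 and rep3 and to 233 to 857 CPM elsewhere, so the sum was not above the others. Gene by gene, 18 of the 29 had an AKR/J d12 mean above all 24 other libraries, beside 9.8% of all genes, and 4 were above them in every AKR/J d12 library, beside 4.88%. Spink1, a trypsin inhibitor, had 54.5, 1.2 and 0.21 CPM, and the calcium-binding S100g had 146, 11 and 2.69 CPM. Hnf4a, a transcription factor that defines hepatic and visceral endoderm, had 3.97, 1.06 and 0.0699 CPM and at most 0.215 CPM elsewhere. It is 1 of 13 endoderm transcription factors, of which 3 had an AKR/J d12 mean above all other libraries and none was above them in every AKR/J d12 library, and whose sum of 28.2 to 36.2 CPM lay within the 20.1 to 58.3 CPM elsewhere. The other 11 yolk sac endoderm genes included Serpina6, at 0 in AKR/J d12, and the most abundant of the list, Ttr, the thyroxine and retinol carrier partner of Rbp4, with 119, 43.6 and 9.89 CPM in AKR/J d12. Its AKR/J d12 mean of 57.4 CPM was below every other group mean, the lowest of which was 182 CPM in C57BL/6J d12. Ttr is the leading gene of choroid plexus as well, and the 13 choroid plexus genes summed to 242 to 344 CPM in AKR/J d12 against 325 to 924 CPM elsewhere.

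Over the 27 libraries, on log2(CPM + 1), the genes outside the members whose pattern was most like Afp among 23307 were Erv3, an endogenous retroviral gene (Pearson r = 0.961), Prl8a2 (0.957), the pepsinogen Pga5 (0.942), S100g (0.940) and the fibrinogen chain Fga (0.938). For Trf they were Fgg (0.864), Fga (0.863), the galectin Lgals2 (0.858), the kininogen Kng1 (0.857) and Fgb (0.856). For Amn, added after its values were seen, they were Chchd10 (0.972), Mal2 (0.957), Thy1 (0.951), Rasgrp2 (0.943) and Me3 (0.940). These values describe 27 points, and for Afp the 3 AKR/J d12 libraries hold most of the range. Among the members, Afp and Apoa1 correlated with r = 0.97 over 27 libraries and 0.65 over the 24 outside AKR/J d12, and Afp and Trf with 0.73 and -0.13. Amn and Cubn went from 0.45 to 0.81, and Apom and Amn from -0.46 to -0.63.

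Reads over splice junctions showed the same order. The junction table held 12 junctions of 6 members, and none of Apoa4, Apom, Apoc2 or Cubn. All 12 were annotated. The Afp junction at chr5:90654604-90655656 (GRCm39, 1053 bases long) had 6209, 761 and 76 reads in AKR/J d12 and 64 in the other 24 libraries together. The only Apob junction had 16, 2 and 0 reads in AKR/J d12 and none elsewhere. The 3 Trf junctions had reads in all 24 other libraries, with 341 to 382 reads each. A 0 in this table need not mean no reads, since junctions were removed by the authors for multi-mapped reads and short overhangs: the Afp junction at chr5:90651566-90652189 had 0, 322 and 10 reads in AKR/J d12.

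Tests were limited to changes that do not involve AKR/J d12. The quasi-likelihood test of edgeR was used with Benjamini-Hochberg adjustment over all genes kept, and fold changes were fitted after TMM scaling. The question asked was how the members moved through the early phase (d12 to d15) and the late phase (d15 to d17) and between strains. Amn rose in every phase tested, and no other member did so in all of them.

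Amn rose 2.26- to 3.54-fold in the 5 changes over time that were tested, which leave out the early phase of AKR/J. In C57BL/6J the libraries had 1.07, 1.03 and 0.786 CPM on d12, then 2.26, 2.44 and 3.66 on d15, then 7.21, 5.93 and 10.4 on d17. In Cav1-null they had 0.821, 0.789 and 1.04 CPM on d12, then 3.5, 3.95 and 2.08 on d15, then 6.81, 9.46 and 6.27 on d17. In AKR/J they had 2.42, 2.82 and 2.72 CPM on d15 and 4.78, 5.12 and 7.56 on d17. Within each strain no library of the earlier day reached any of the later day. The log2 fold change was 1.57 ± 0.30 (SE, edgeR adjusted p = 0.0251) for the early phase in C57BL/6J and 1.83 ± 0.32 (edgeR adjusted p = 0.00473) in Cav1-null. For the late phase it was 1.36 ± 0.30 (edgeR adjusted p = 0.0282) in C57BL/6J, 1.23 ± 0.23 (edgeR adjusted p = 0.00167) in Cav1-null and 1.18 ± 0.25 (edgeR adjusted p = 0.0125) in AKR/J. The early and late phases of a strain share its d15 libraries. By mean level the order was d17, then d15, then d12 in each strain. The strains overlapped on each day, with a log2 difference of Cav1-null from C57BL/6J of -0.21 on d12, 0.01 on d15 (interval -0.62 to 0.65) and -0.10 on d17 (-0.70 to 0.51).

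The C57BL/6J calls for Amn were lost in several fits with 1 library left out, in which most calls over all genes were lost too. The early call was lost without d12 rep1 or without any 1 of the 3 d15 libraries, with log2 fold changes of 1.35 to 1.74 and 0 to 330 genes called in all in place of 2850. The late call was lost without d15 rep1, d15 rep2 or d17 rep3, with 1.12 to 1.27 and 160 to 363 genes called in all in place of 2594. In AKR/J the call was lost without d17 rep3 (0.92). The Cav1-null calls held without each library in turn. In 1 model of all 27 libraries the late Amn calls were lost in Cav1-null and AKR/J. The early C57BL/6J call was lost with the replicate number as a block. Over the alternatives that left out no library, these log2 fold changes were 1.23 to 1.25, 1.14 to 1.19 and 1.55 to 1.62.

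Cubn rose in the early phase in Cav1-null and in the late phase in AKR/J, and passed in neither phase in C57BL/6J. In Cav1-null the libraries had 1.75, 1.46 and 2.28 CPM on d12, then 3.84, 3.09 and 3.99 on d15, then 5.08, 5.21 and 5.3 on d17. In AKR/J they had 2.83, 2.65 and 2.88 CPM on d15 and 4.64, 5.99 and 5.2 on d17. In C57BL/6J the means were 2.66, 2.81 and 3.81 CPM on the 3 days, a narrower course. The early change in Cav1-null was 0.98 ± 0.26 on the log2 scale (edgeR adjusted p = 0.0252) and the late change in AKR/J 0.96 ± 0.21 (edgeR adjusted p = 0.0141). The late change in Cav1-null was 0.51 ± 0.18 (edgeR adjusted p = 0.0513), and those in C57BL/6J were 0.12 ± 0.23 early and 0.30 ± 0.19 late (edgeR adjusted p = 0.745 and 0.289). The Cav1-null early call was lost without any 1 library except d12 rep3, with 0.86 to 1.08, and the AKR/J call without d17 rep2 or d17 rep3 (0.86 and 0.95). Both calls were also lost in 1 model of all 27 libraries. The difference between strains in the early change of Cubn was 0.84 ± 0.32 and missed the threshold (edgeR adjusted p = 0.265, interval 0.14 to 1.53).

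**Figure D3:**
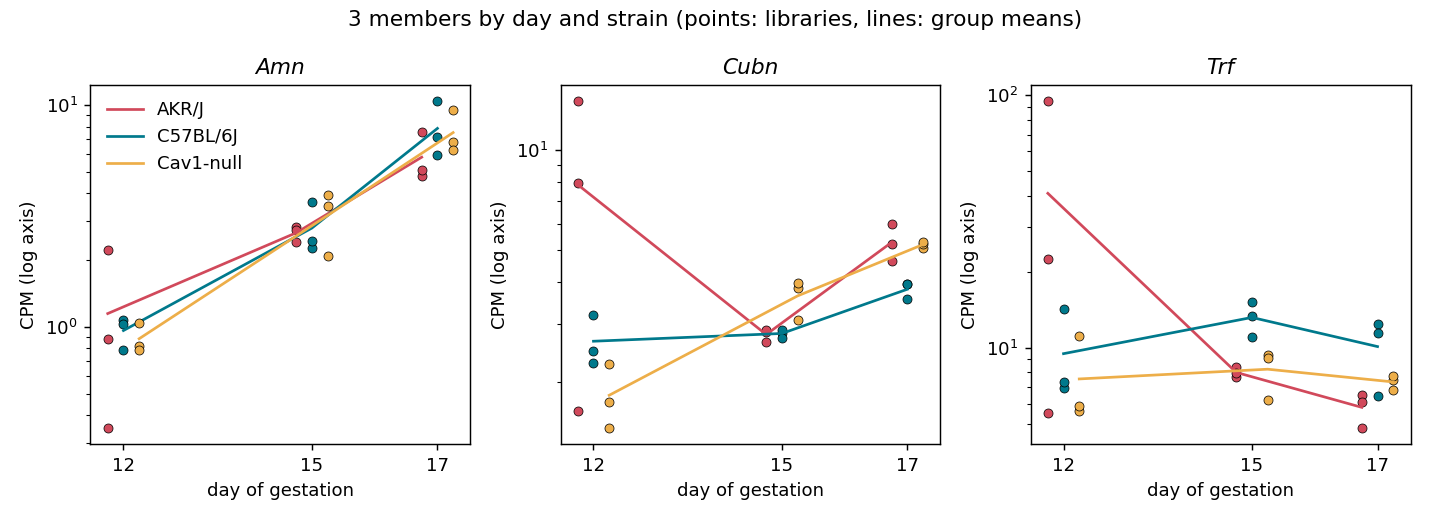
Amn, Cubn and Trf by day of gestation and strain, as CPM on a log axis whose range differs between panels. Points are libraries, shifted sideways by strain, and lines join group means. On d12 Amn lies at 0.786 to 1.07 CPM in C57BL/6J and Cav1-null and at 0.35 to 2.21 CPM in AKR/J. It reaches 4.78 to 10.4 CPM on d17, whereas Trf stays within 4.82 to 15.2 CPM outside AKR/J d12.

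Megalin (Lrp2), the partner receptor of cubilin and amnionless, did not rise with them. It was chosen for mention after its values were seen. Its mean was 34.2, 17.1 and 11.7 CPM in C57BL/6J on the 3 days and 16.9, 9.6 and 9.7 CPM in Cav1-null. The edgeR log2 fold change of Lrp2 was -0.95 early (adjusted p = 0.0487) and -0.69 late (adjusted p = 0.0413) in C57BL/6J, and -0.84 early (adjusted p = 0.00611) in Cav1-null. In AKR/J it was -0.58 from d15 to d17 and did not pass (adjusted p = 0.0936).

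Trf differed between strains on d15. The C57BL/6J libraries had 15.2, 11 and 13.4 CPM, the Cav1-null libraries 9.39, 6.22 and 9.09 CPM, and the AKR/J libraries 7.64, 8.39 and 7.96 CPM. All 3 C57BL/6J libraries were above all 6 of the others. The log2 fold change was -0.86 ± 0.18 for Cav1-null against C57BL/6J (edgeR adjusted p = 0.00233) and -0.88 ± 0.15 for AKR/J against C57BL/6J (edgeR adjusted p = 0.00282). These comparisons share the C57BL/6J d15 libraries, and 58.6% and 41.1% of all genes passed the same threshold in them, so a call here is common. Both Trf calls were lost in 1 model of all 27 libraries. Over the alternatives that left out no library, the log2 fold changes were -0.90 to -0.78 for Cav1-null and -0.95 to -0.87 for AKR/J. On d17 the log2 fold changes against C57BL/6J were -0.51 ± 0.28 for Cav1-null (edgeR adjusted p = 0.575) and -0.84 ± 0.29 for AKR/J (edgeR adjusted p = 0.184). Over time Trf passed in no strain.

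Apoa1 was also past the threshold on d15, at counts that make its test no independent support. The Cav1-null d15 libraries had 0.968, 0.688 and 1.94 CPM, against 0.0714, 0.0607 and 0.296 CPM on d12 and 0.151, 0.238 and 0.484 CPM in C57BL/6J d15. The d15 libraries of Cav1-null were above both other groups without overlap. The counts behind these levels were low, with 26, 20 and 54 reads in Cav1-null d15, 2, 2 and 10 in Cav1-null d12 and 6, 9 and 18 in C57BL/6J d15, so Apoa1 passed the count filter only through the group where it was high, and its folds are given as values. The log2 fold change was 3.00 ± 0.66 from d12 and 1.86 ± 0.54 against C57BL/6J d15. With at least 10 reads required in every library Apoa1 was not tested in either comparison. Without Cav1-null d15 rep3 neither was past the threshold (2.47 and 1.33), nor was the first without Cav1-null d12 rep1 (2.72). The same d15 libraries held liver genes: the 12 liver genes summed to 13.2, 2.48 and 12.3 CPM in rep1, rep2 and rep3, against 2.18 to 3.79 CPM in Cav1-null d12 and 4.55 to 4.97 CPM in C57BL/6J d15. Alb had 6.7, 0 and 7.29 CPM there, and Fetub was at 0 in all 3. Rep2, with no Alb read, had an Apoa1 level of 0.688 CPM, above all C57BL/6J d15 libraries. The part of liver RNA in the Apoa1 change was not tested.

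Afp in that group was 0.223, 0.275 and 5.82 CPM, so its mean of 2.11 CPM came from rep3, and its early change was 2.27 ± 1.15 (edgeR adjusted p = 0.193). Alb, given above for these libraries, was similar in rep1 and rep3, and Afp was not. The part of liver RNA in the Afp level was not tested. The largest fitted Afp difference between strains among the tested comparisons was on d17, with 0.346, 1.71 and 0.416 CPM in AKR/J and 0, 0.135 and 0 CPM in C57BL/6J. The groups did not overlap, but the 4.07 ± 1.11 on the log2 scale missed the threshold (edgeR adjusted p = 0.15) and the C57BL/6J value rests on 4 reads in 1 library. Afp too was kept there only through the group where it was high, so this fold is given as a value.

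**Figure D4:**
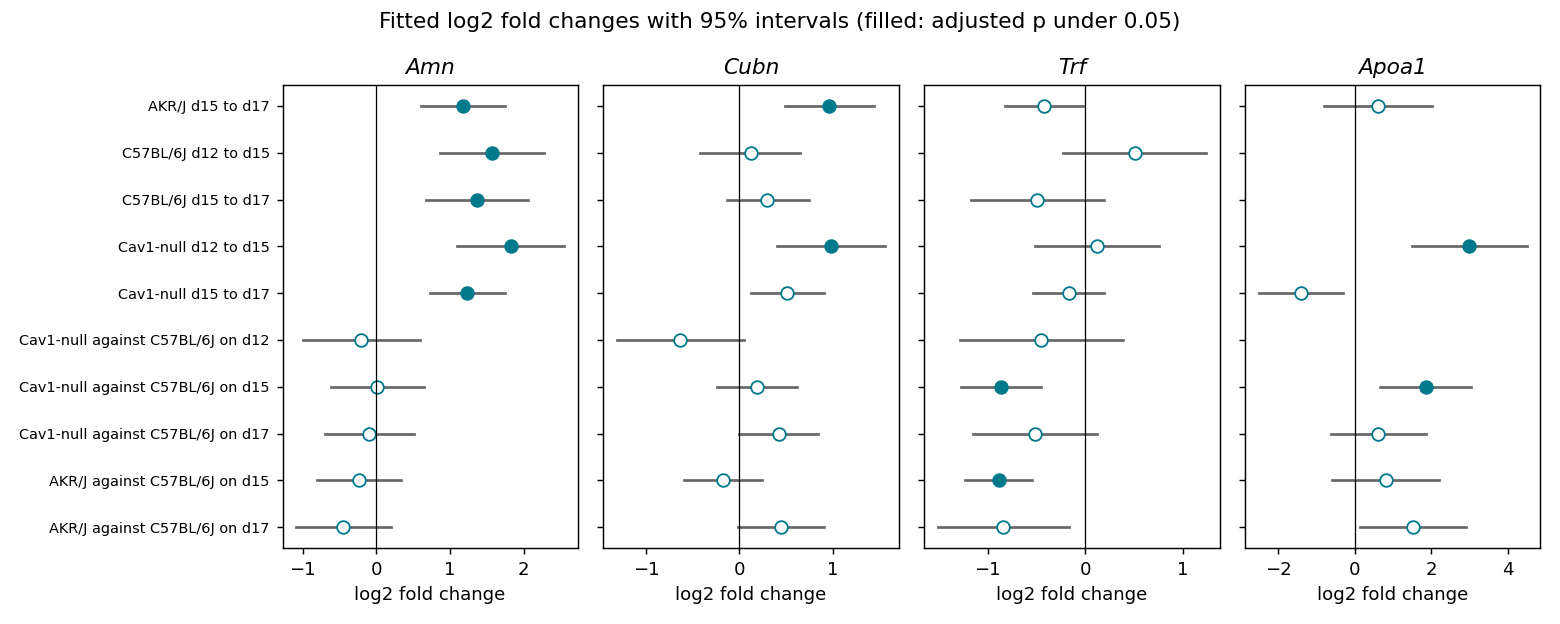
Fitted log2 fold change (second group or day over first) of Amn, Cubn, Trf and Apoa1 in the tested comparisons, with 95% intervals as lines. Filled points passed an adjusted p of 0.05 and a missing point means that the gene was not kept by the filter. All 5 changes over time in Amn are filled and positive, and the 2 filled points of Trf are the d15 comparisons with C57BL/6J. Apoa1 passed the count filter only through the group where it was high, so its filled points are no independent support.

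The counts of members called are read against the share of all genes called in the same comparison. Of the members kept by the filter, 2 of 7 rose in AKR/J from d15 to d17 (22.1% of all genes called), 1 of 7 in C57BL/6J early (14.9%) and 1 of 6 late (13%), 3 of 8 in Cav1-null early (23.4%) and 1 of 8 late (27.3%), and none fell by the test. The counts for Cav1-null early and for d15 against C57BL/6J include Apoa1, and with at least 10 reads required in every library they were 2 (Amn and Cubn) and 1 (Trf). Cav1-null against C57BL/6J had 0 of 6 members called on d12 (0% of all genes), 1 higher and 1 lower of 7 on d15 (58.6%) and 0 of 6 on d17 (0.0491%). AKR/J against C57BL/6J had 1 of 8 called on d15 (41.1%), lower in AKR/J, and 0 of 7 on d17 (0.742%). In the comparisons with a count of 0 by edgeR, 0, 1 and 3 members had an unadjusted p under 0.05 (Cav1-null on d12, on d17 and AKR/J on d17), and DESeq2 called 0, 0 and 1. The genes with an unadjusted p under 0.05 in these comparisons were 4309 of 19475, 1538 of 20358 and 4275 of 20207, and DESeq2 called 2044 genes in the first. The differences between strains in the early or late change were called for none of 8 members in 3 tests by edgeR or DESeq2, beside 0.00472%, 0.252% and 0.00468% of all genes called by edgeR. At an unadjusted p under 0.05 there were 2, 0 and 2 members, beside 3181 of 21191, 4683 of 21431 and 1616 of 21373 genes. The intervals for Amn were -0.69 to 1.15 for the early change of Cav1-null less that of C57BL/6J, -1.06 to 0.75 for the late change, and -0.99 to 0.69 for the late change of AKR/J less that of C57BL/6J.

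Apom passed the test in no comparison, and its mean was highest on d12. Its mean was 1.4, 0.73 and 0.709 CPM in C57BL/6J and 1.19, 0.689 and 0.412 CPM in Cav1-null over the 3 days. The 3 Cav1-null libraries of each later day were below all of the earlier day. The early log2 fold change was -0.89 ± 0.44 in C57BL/6J and -0.80 ± 0.38 in Cav1-null (edgeR adjusted p = 0.188 and 0.159). The late one was -0.19 ± 0.40 in C57BL/6J, -0.74 ± 0.44 in Cav1-null and -0.25 ± 0.52 in AKR/J (edgeR adjusted p = 0.772, 0.24 and 0.771). Rbp4 had means of 0.292, 0.554 and 1.24 CPM in C57BL/6J, with an early log2 fold change of 0.97 ± 0.56 and a late one of 1.03 ± 0.50 (edgeR adjusted p = 0.25 and 0.196). In Cav1-null its means were 0.659, 0.759 and 0.809 CPM, with 0.20 ± 0.71 early and 0.09 ± 0.42 late (edgeR adjusted p = 0.869 and 0.898).

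Partner genes of the members were counted from lists. Of 28 genes of lipoprotein assembly, exchange and uptake, 24 were tested in most comparisons. Among them 5 rose and 2 fell in AKR/J from d15 to d17, and in Cav1-null 3 rose and 3 fell early and 5 rose and 1 fell late, with list medians of 0.06, 0.15 and 0.15 against -0.01, -0.01 and -0.00 over all genes, of which 22.1%, 23.4% and 27.3% were called. In C57BL/6J 2 of 24 rose and 2 fell early, beside 14.9% of all genes called, and 2 of 23 rose late, beside 13%. Lrp1, an endocytic receptor for apolipoprotein E and the most abundant of them, had a mean of 784 CPM in C57BL/6J d15 and 262 in Cav1-null d15 (log2 fold change -1.76, edgeR adjusted p = 9.27e-08). In the same comparison Pltp, the phospholipid transfer protein, was lower by -2.23 and Apoc1 higher by 1.80 (edgeR adjusted p = 5.12e-06 and 0.0281). There 16 of 25 were lower and 3 higher, with a list median of -0.51, beside 58.6% of all genes called. In the same comparison 10 of 12 neural genes were lower and 2 higher, with a median of -0.45, and 6 of 13 choroid plexus genes were lower and none higher. On d12 and d17 no gene of this list or of those below was called between Cav1-null and C57BL/6J, beside 0% and 0.0491% of all genes. AKR/J against C57BL/6J on d15 had 11 of 24 lipoprotein genes lower and 1 higher, beside 41.1% of all genes. There 7 of 12 neural genes were lower and 1 higher.

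Of the partner genes for iron, retinol and cobalamin, 18 were measured in most comparisons, and in Cav1-null against C57BL/6J on d15 5 were higher and 10 lower, where 58.6% of all genes were called. Fth1, the ferritin heavy chain and the most abundant, had 1887, 629 and 1763 CPM in AKR/J d12 and a group mean of at most 547 CPM elsewhere. Stra6, the membrane receptor of Rbp4, was lower in Cav1-null d15 (-1.85, edgeR adjusted p = 7.56e-06), as was the iron reductase Steap3 (-1.45, edgeR adjusted p = 0.00379). Tfrc, the receptor of transferrin, went the opposite way to Trf there, with means of 82.1 and 153 CPM (0.72, edgeR adjusted p = 1.58e-06), a gene chosen after its values were seen. Tfrc is abundant in red cell precursors, and the erythroid genes summed to 3109 to 3853 CPM in Cav1-null d15 against 741 to 995 CPM in C57BL/6J d15, with 6 of 13 higher and 2 lower. Their part in the Tfrc difference was not tested. Heph, a copper-dependent iron oxidase, fell in Cav1-null early (-1.96, edgeR adjusted p = 0.00296), and Lrat, which esterifies retinol, rose late (1.78, edgeR adjusted p = 0.00721).

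Of the 13 endoderm transcription factors, 7 to 9 were tested in each of the 5 changes over time, and none was called higher. Those called lower were 3 of 8 in AKR/J late (22.1% of all genes called), 0 of 9 in C57BL/6J early (14.9%) and 3 of 9 late (13%), and 2 of 7 in Cav1-null early (23.4%) and 0 of 8 late (27.3%). Foxa2 and Foxa1, which in brain mark the floor plate and midbrain dopamine lineage, fell in AKR/J from d15 to d17 by 1.99 and 1.69 on the log2 scale (edgeR adjusted p = 0.0204 and 0.0106). Gata6 and Sox7, also expressed in endothelium, were lower in Cav1-null d15 than in C57BL/6J d15 (-2.93 and -1.85, edgeR adjusted p = 0.00193 and 1.77e-05). Sox17, an endothelial gene in brain and the most abundant of the list, ranged from 4.59 to 8.71 CPM over group means. Of 9 tested in that comparison, 7 were lower and none higher, with a median of -0.81 against 0.03 over all genes, of which 58.6% were called. Of the other yolk sac endoderm genes tested there, 3 of 15 were higher and 5 lower, among them the epithelial cadherin Cdh1 (-2.43, edgeR adjusted p = 1.36e-05). The largest changes of that list over time were rises of Slc13a4, a sulfate transporter of choroid plexus and meninges, in C57BL/6J early (2.36, edgeR adjusted p = 0.0319) and of Vil1, the microvillus protein villin, in Cav1-null late (1.91, edgeR adjusted p = 0.0261).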

How the data were processed

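Whole-brain RNA of 27 mouse fetuses was sequenced. The deposited table holds read counts per gene made by the authors, not normalized, and a second deposited table holds read counts per splice junction, from which the authors removed junctions with multi-mapped reads, an overhang under 20 bases or fewer than 10 reads in all samples. The submitters' processing notes name FastQC, cutadapt, fastp, STAR, edgeR, bedtools and GRCm39. The counting tool, its strand setting and its handling of multi-mapped reads are not given in the sources used here. Even values made up 59.7% of the 297388 counts from 1 to 20, so counts may be of read ends and not of pairs.

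Samples were grouped by strain and day from the labels. CPM was computed on the library total, and CPM per kilobase on the merged exons of GENCODE vM39. Genes kept by filterByExpr were tested in each comparison on its own libraries with edgeR 4.0.16 (R 4.3.3; TMM, quasi-likelihood test), with Benjamini-Hochberg adjusted p under 0.05 as a call; intervals are 95%. The code was tested on simulated data for 1 comparison and 1 interaction with 1 fixed spread for all genes. That checks the code and does not show how the tests behave on these data. Alternatives were DESeq2 1.42.0, the likelihood ratio test, RLE scaling, other count filters, 1 model of all libraries, a replicate block and leaving out each library. All members are named; from each list of partner, endoderm factor and yolk sac genes the most abundant gene and up to 4 called genes with the largest change are named (the rule covered the tissue marker lists too, which are given here by sums, counts and single markers), and the 5 genes most like Afp and Trf, beside genes described as chosen after their values were seen or given as tissue markers. For 1 gene that this rule names, the values are not reported here. The members and lists were chosen with earlier results of these data known. Floors and intervals of counts cover counting error only.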

Additional observations from a re-analysis of the deposited data

How the results depend on the processing

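No called change of a member reversed under any alternative. Of 75 fold changes recomputed with another choice, 65 were called again and 10 were not, and of 66 recomputed with 1 library left out, 48 were called again. These include the Apoa1 changes from d12 and against C57BL/6J d15, whose tests are no independent support. Each was called in 5 of 6 with another choice, and they were called in 4 of 6 and 5 of 6 with 1 library left out. The number of members called was within 1.5 times in 152 of 187 alternatives. With 1 model of all 27 libraries it went from 2 to 0 for AKR/J d15 to d17, from 3 to 1 for Cav1-null d12 to d15, from 1 to 0 for Cav1-null d15 to d17, from 2 to 0 for Cav1-null against C57BL/6J on d15 and from 1 to 0 for AKR/J against C57BL/6J on d15. The cause was not tested. For Cav1-null d15 to d17 it was 2 by DESeq2, 4 by the likelihood ratio test, 4 with no filter and 2 with at least 10 reads in every library. The likelihood ratio test gave 2 for C57BL/6J d15 to d17, and the minimum of 10 reads gave 1 for Cav1-null against C57BL/6J on d15. For AKR/J against C57BL/6J on d17 DESeq2, the likelihood ratio test and no filter each gave 1, Afp.

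Replicate numbers did not pair the samples: in 0 of 10 comparisons was every same-number correlation over 0.1 (range -0.47 to 0.4). With the replicate number as a block the count was 0 for C57BL/6J d12 to d15, where 0 genes in all were called, 2 for Cav1-null d15 to d17 and 1 for AKR/J against C57BL/6J on d17, and for Cav1-null d12 to d15 it was 2, since Cubn (0.98) was no longer called.

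With 1 library left out, the counts ran from 0 to 2 for AKR/J d15 to d17, C57BL/6J d12 to d15, C57BL/6J d15 to d17, Cav1-null against C57BL/6J on d17 and AKR/J against C57BL/6J on d17, from 1 to 4 for Cav1-null d12 to d15, and from 1 to 3 for Cav1-null d15 to d17 and for Cav1-null against C57BL/6J on d15. In these fits the calls over all genes ran from 0 to 5958 for C57BL/6J d12 to d15 and from 160 to 6985 for C57BL/6J d15 to d17. Leaving rep1 out of the AKR/J d12 ratios was chosen after seeing the data. The mean summed level of the members in AKR/J d12, 478 CPM, was 660 with TMM library sizes, 511 without erythroid reads, 134 without rep1, 595 without rep2 and 703 without rep3. Of the 12 junctions 11 had at least 10 reads in AKR/J d12. Depth limits Afp, Apoa1, Apoa4 and Apob outside AKR/J d12, where many libraries held fewer than 10 reads.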
